A study of Mus musculus with 71 samples.

Results

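The messenger RNAs of CTCF, of the cohesin subunits and loader (Smc1a, Smc3, Rad21, Stag1, Stag2, Nipbl) and of condensin subunits (Smc2, Smc4, Ncaph2) were followed in poly(A) RNA-seq of mouse embryonic stem cells (mESCs), either WT or lacking the linker histone variants H1c, H1d and H1e (H1-TKO). The 10 genes were listed by name, out of 24138 genes with a symbol in the tables, and the rule sets no threshold on a measured value. Smc4 was about 2-fold higher in H1-TKO than in WT mESCs, while Ctcf and 4 core cohesin genes did not pass the test. The other 4 genes are listed under several RefSeq accessions each, hold few or no reads there and were therefore not measured. In the plot of normalized counts by library, Smc4 is the gene whose WT and H1-TKO points stand furthest apart.

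WT cells were R1 mESCs, a mouse line kept undifferentiated with LIF. H1-TKO mESCs were the same line after CRISPR/Cas9 cutting of H1c, H1d and H1e, linker histone genes that 1 guide matches, so other H1 variants were left in place. Each genotype had 2 libraries, done as independent duplicates by the study's statement, and 4 of the 71 samples of the series were thus used for expression. No source used here says how many H1-TKO clones the libraries stand for, and the growth text of these samples describes HeLa culture although the cell type given is mESC. The sample labels call the H1-TKO tables WT and the WT tables H1KO. Here each library has the genotype in the header of its own table, which was also that of the matching column in the study's own expression table. If the sample labels were right instead, every direction below would be reversed and no p-value would change. The targeted genes held few reads. H1f2 (H1c) stood at 11.6 and 56.7 normalized counts for WT against 18.7 and 7.4 for H1-TKO, H1f3 (H1d) had 3.9 and 41.4 against 1.1 and 0, and H1f4 (H1e) had 5.4 and 19.6 against 0 and 2.1. H1f2 and H1f3 passed the filter, and neither was called in limma or edgeR. H1f3 was lower at an unadjusted p under 0.05 in both. DESeq2 called it lower in the libraries whose headers name H1-TKO, with 1 and 0 reads there against 5 and 38 reads in WT. Most of these WT reads were in WT replicate 2, and H1f2 in WT replicate 1 lay between its H1-TKO values. With so few reads in poly(A) libraries, these values cannot check the knockout.

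CTCF is a zinc-finger protein that binds DNA at insulators and stops the cohesin ring as it extrudes loops. Cohesin is built from the ATPase arms Smc1a and Smc3, the kleisin Rad21 that closes the ring and a Stag subunit, and Nipbl loads it and drives its motor. Condensin is the related ring that compacts chromosomes in mitosis. Its arms are Smc2 and Smc4, shared by condensin I and condensin II, and Ncaph2 is the kleisin of condensin II. Linker histone H1 binds nucleosomes at the entry and exit of DNA and compacts the fibre on which these machines work.

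The unit throughout is the normalized count, a library's read count for 1 accession divided by its size factor. The WT libraries held 10538507 and 8292007 recovered reads and those of H1-TKO 6951619 and 7346122. The WT pair differed more than the H1-TKO pair, with a median absolute difference of 0.35 on the log2 scale over 11113 tested accessions against 0.16. In WT replicate 2 a ribosomal RNA precursor took 11.8% of the reads, against 1.98% to 2.08% in the other libraries. Of 10 pluripotency genes 7 were measured, 3 higher and 1 lower in H1-TKO (2 higher in edgeR), where 9.84% and 10.7% of all tested accessions were, with sums of 32912.3 and 42064.3 in WT and 49467.2 and 50256.3 in H1-TKO. Nanog and Esrrb, with several accessions each, were at or near 0 in every library. Of 8 fibroblast markers 3 were measured, of which Thy1 was higher, Col1a1 lower and Col1a2 not called. The list's sum ranged from 298.8 to 353.7 in WT and from 510.1 to 576.1 in H1-TKO, and Dcn, Postn and Pdgfrb, listed at 0 in every library, have several accessions each and so were not measured. Thy1, a surface glycoprotein, had 109.4 and 125.4 in WT and 449.5 and 510.8 in H1-TKO, while Col1a1, the collagen chain, had 195.5 and 148.3 against 34.2 and 53.7. Summed differentiation markers were 1643.2 and 506.1 in WT against 244.5 and 259.1, of which Krt8, an epithelial keratin, gave 1437.6 and 314.1 in WT. The part of any of these in the results below was not tested, and fewer cells of a type cannot be told apart from less RNA per cell.

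Of the 10 genes, 6 have 1 accession and passed the filter, a mean normalized count of at least 10. Ctcf, Smc1a, Smc3, Rad21, Stag1 and Smc4 are those 6. In limma, 1 of them was higher in H1-TKO at an adjusted p under 0.05, where 9.84% of all tested accessions were. None was lower, where 10.7% of all were, and none was lower at an unadjusted p under 0.05 either, nor in edgeR or DESeq2. The 6 log2 fold changes had a median of 0.15 against -0.03 over all tested accessions, and 5 of them lay above 0. WT and H1-TKO libraries did not overlap for 4 of the 6 genes, which was the case for 66.4% of all tested accessions.

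**Figure D1:**
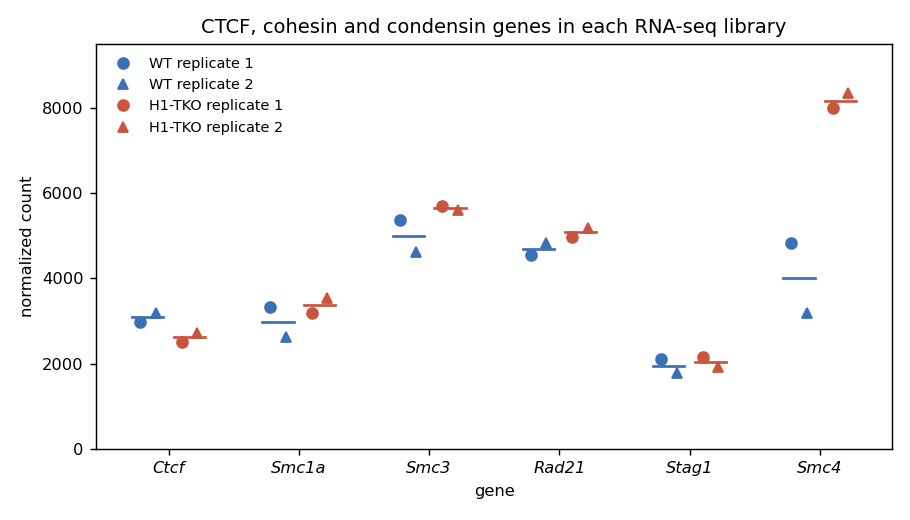
Normalized counts (y axis) of the 6 measured genes (x axis) in each RNA-seq library, WT in blue and H1-TKO in red, circles for replicate 1, triangles for replicate 2 and bars for the mean; genotypes follow the tables' own headers, and the sample labels reverse them. Smc4 lies at 7994.6 and 8343.6 in H1-TKO, above 4840.3 and 3179.6 in WT, while the points of Smc1a and Stag1 overlap.

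Start-site sequences were available for 6 of the 10 genes (Ctcf, Smc1a, Smc2, Smc3, Stag1, Ncaph2) from RefSeq on GRCm38.p6, as windows of 300 bases. They are shown for 3 of them because they share the motif CGCCATNTT, the core bound by the zinc-finger protein YY1, which was searched on both strands. The motif was picked after the sequences had been read. It is in capitals below, and it occurs in 782 of all 32851 such windows, 2.38%. The motif itself holds a CpG, and its share in CpG-rich windows alone was not computed. The windows are chr8:105636288-105636587 for Ctcf, chr19:53600146-53600445 for Smc3 and chr9:100643198-100643497 for Stag1, all on the plus strand.
Ctcf: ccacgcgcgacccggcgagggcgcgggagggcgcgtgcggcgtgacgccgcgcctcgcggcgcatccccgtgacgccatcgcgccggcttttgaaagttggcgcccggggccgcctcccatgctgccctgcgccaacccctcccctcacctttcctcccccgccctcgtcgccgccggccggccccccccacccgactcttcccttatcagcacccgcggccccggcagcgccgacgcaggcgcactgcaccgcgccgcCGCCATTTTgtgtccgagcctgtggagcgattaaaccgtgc
Smc3: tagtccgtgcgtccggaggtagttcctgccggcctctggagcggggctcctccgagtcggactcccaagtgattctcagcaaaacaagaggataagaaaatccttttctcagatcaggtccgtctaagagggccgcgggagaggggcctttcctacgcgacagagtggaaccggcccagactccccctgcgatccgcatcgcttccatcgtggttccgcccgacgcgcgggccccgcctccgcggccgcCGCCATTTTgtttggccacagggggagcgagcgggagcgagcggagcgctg
Stag1: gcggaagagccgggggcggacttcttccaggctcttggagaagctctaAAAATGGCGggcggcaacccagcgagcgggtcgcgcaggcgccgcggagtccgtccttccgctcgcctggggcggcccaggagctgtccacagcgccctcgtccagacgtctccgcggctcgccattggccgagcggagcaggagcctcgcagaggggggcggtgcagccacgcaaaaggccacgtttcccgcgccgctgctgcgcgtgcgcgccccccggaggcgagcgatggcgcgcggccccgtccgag
Counted from the annotated start, the motif begins at base 10 in Ctcf and at base -1 in Smc3. In Stag1 it begins at base -202 and reads on the minus strand, as AAAATGGCG. Windows of Smc1a, Smc2 and Ncaph2 hold no match, which says only that these letters are absent there. Of the 44 other folding genes described below, 38 had such a window, and Adnp, Lmnb2 and Pds5b have a match. All 6 windows are rich in CpG, with an observed to expected ratio from 0.82 in Ncaph2 to 1.16 in Ctcf, and 35.8% of all windows reach 0.6. A match is a description of letters and no evidence of binding.

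None of the 10 genes had a listed H3K27me3 peak at its start. H3K27me3 is the repressive mark laid down by PRC2, and the deposited ChIP-seq peak lists, 1 for WT with 6957 peaks and 1 for H1-TKO with 6262, were searched within 1 kb of every coding start in GENCODE M1 (mm9). The count was 0 of 10 in either list, where 12.4% of 22238 genes had a peak in WT and 11.2% in H1-TKO. It was also 0 within 5 kb. The nearest peaks were at Ncaph2, 22.3 kb away in both lists, and at Ctcf, 23.2 kb away in WT and 23.9 kb in H1-TKO. Stag1 followed at 26.6 and 26.7 kb, while Smc4 was 133.6 kb from a peak in both. Smc1a, on the X chromosome, was 6029.7 kb from the nearest WT peak and 129.3 kb from the nearest H1-TKO peak. With 1 list per genotype these distances have no replicate check, and a region below the caller's threshold counts as no peak.

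Ctcf (NM_181322, mm9 chr8:108160468-108206822, plus strand), the insulator protein itself, stood at 2977.6 and 3192.7 for the WT pair and at 2500.0 and 2723.6 for the H1-TKO pair, as normalized counts. Both H1-TKO values were below both WT values. The log2 fold change was -0.24 with a standard error of 0.12 (limma adjusted p = 0.186), and its 95% interval ran from -0.52 to 0.04. The 601 tested accessions of chromosome 8 had a median log2 fold change of -0.24 as well. With every library centred on its own chromosome medians, the value for Ctcf was -0.08 (adjusted p = 0.662). Without WT replicate 1 the change was -0.29 with an adjusted p of 0.000857, and without WT replicate 2 it was -0.19 with an adjusted p of 0.0403. In those fits the spread comes from the H1-TKO libraries alone.

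Smc3 (NM_007790, mm9 chr19:53674886-53720323, plus strand), an ATPase arm found in every cohesin ring, had 5369.4 and 4617.2 in WT and 5689.7 and 5603.1 in H1-TKO. The groups did not overlap, but the gap between them was smaller than that between the WT libraries. Its log2 fold change was 0.18 with a standard error of 0.12 (limma adjusted p = 0.310). It passed the test in 1 of 14 alternatives, without WT replicate 1, at 0.29, and stood at 0.07 when WT replicate 2 was left out.

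Smc1a (NM_019710, mm9 chrX:148450971-148497237, plus strand), the partner arm of mitotic cohesin, had 3320.5 and 2615.7 in WT and 3186.4 and 3540.9 in H1-TKO. The groups overlapped, and the log2 fold change was 0.19 with a standard error of 0.15 (limma adjusted p = 0.391). It too passed in 1 of 14 alternatives, without WT replicate 1, where the value was 0.36, and it had 0.02 without WT replicate 2.

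Rad21 (NM_009009, mm9 chr15:51794151-51823306, minus strand), the kleisin that separase cuts at anaphase, had 4557.9 and 4829.9 in WT and 4974.6 and 5190.3 in H1-TKO. These were the closest WT values of the cohesin genes, and both H1-TKO values lay above them. The log2 fold change was 0.11 with a standard error of 0.11 (limma adjusted p = 0.484), and Rad21 passed in none of the 14 alternatives.

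Stag1 (NM_009282, mm9 chr9:100498217-100858964, plus strand), the Stag subunit tied to telomere cohesion, had 2110.2 and 1774.7 in WT and 2144.1 and 1924.2 in H1-TKO. The groups overlapped, and the log2 fold change of 0.07 with a standard error of 0.14 (limma adjusted p = 0.746) was the smallest of the 6 in size. Its interval, from -0.26 to 0.40, spans 0.83-fold to 1.32-fold. The intervals of Smc1a, Smc3 and Rad21 began between 0.90-fold and 0.93-fold and ended between 1.30-fold and 1.45-fold, so small changes of cohesin could not be told from none with 2 libraries a genotype. With scaling to total reads the cohesin values were larger, from 0.23 for Stag1 to 0.35 for Smc1a, but none passed, and that of Ctcf was -0.08.

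Smc4 (NM_133786, mm9 chr3:68808660-68838545, plus strand), the condensin arm shared by condensin I and II, had 4840.3 and 3179.6 in WT and 7994.6 and 8343.6 in H1-TKO. Every H1-TKO value was above every WT value, although the WT libraries differed from each other by 0.61 on the log2 scale. Smc4 rose 2.08-fold, a log2 fold change of 1.06 with a standard error of 0.19 (limma adjusted p = 0.0122), and the 95% interval ran from 1.53-fold to 2.84-fold. It passed the test in 14 of 14 alternatives, with log2 values from 0.75 without WT replicate 2 to 1.36 without WT replicate 1 and a highest adjusted p of 0.044. The 455 tested accessions of chromosome 3 had a median log2 fold change of -0.01.

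**Figure D2:**
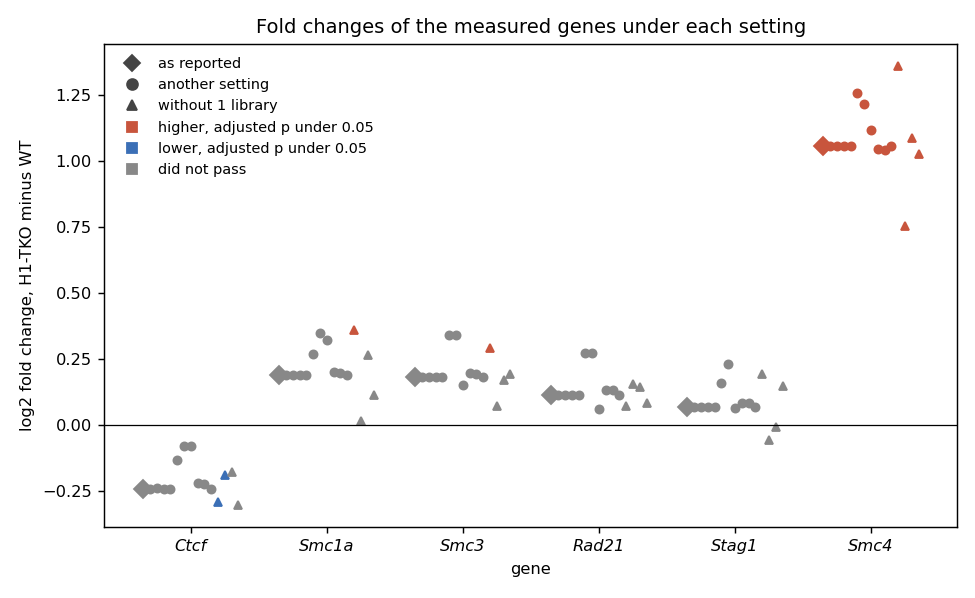
Log2 fold change, H1-TKO minus WT (y axis), of each measured gene (x axis) as reported (diamond), under another setting (circle) and without 1 library (triangle), coloured where the adjusted p was under 0.05; genotypes follow the tables' own headers, and the sample labels reverse them. Smc4 stays between 0.75 and 1.36 and is called in every fit, Ctcf is called lower only in both fits that leave out a WT library, and Stag1 crosses 0.

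Levels can be compared between genes only per length, and here they were divided by the longest coding transcript of each gene in GENCODE M1. In WT, Rad21 was the highest at 1302 normalized counts per kb, followed by Smc3 at 1029, Smc4 at 929, Ctcf at 816, Smc1a at 633 and Stag1 at 314. In H1-TKO, Smc4 led at 1893 per kb, followed by Rad21 at 1410, Smc3 at 1164, Smc1a at 717, Ctcf at 691 and Stag1 at 329. The WT libraries of Smc4, at 1121 and 737 per kb, spanned those of Smc3 and of Ctcf, so the places of Smc4 next to these genes in WT are not beyond the spread, and neither is the order of Smc1a and Ctcf in H1-TKO. All 6 were well expressed. Stag1 was above 76.4% and Rad21 above 95.7% of the 9158 accessions compared in WT, and Smc4 moved from above 93.2% in WT to above 97.7% in H1-TKO.

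The ratio of Smc4 to Smc3 per kb, which needs no scaling between libraries, was 1.01 and 0.77 in WT and 1.58 and 1.67 in H1-TKO. Smc1a to Smc3, the 2 arms of cohesin, stayed at 0.64 and 0.59 in WT and 0.58 and 0.65 in H1-TKO. Rad21 to Smc3 was 1.14 and 1.41 in WT and 1.18 and 1.25 in H1-TKO, and Stag1 to Smc3 was 0.31 and 0.30 in WT against 0.30 and 0.27. Ctcf to Rad21 was 0.62 and 0.63 in WT and 0.48 and 0.50 in H1-TKO. These ratios are descriptions and were not tested.

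**Figure D3:**
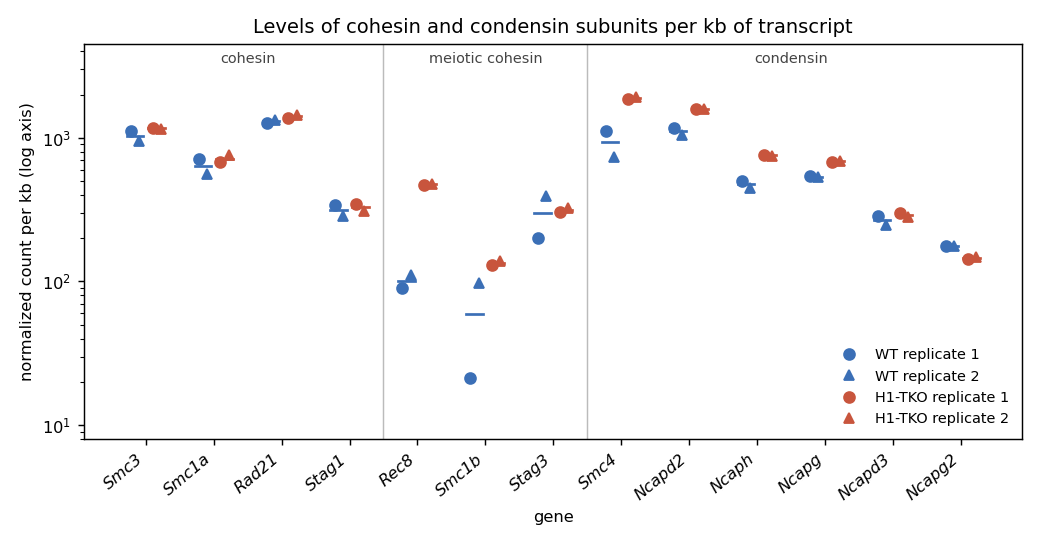
Normalized count per kb of transcript (y axis, log scale) of cohesin, meiotic cohesin and condensin genes (x axis) in each library, WT in blue and H1-TKO in red, with bars for the mean; genotypes follow the tables' own headers, and the sample labels reverse them. Smc4 moves from a mean of 929 to 1893 and Rec8 from 100.5 to 475, while Smc3, Smc1a, Rad21 and Stag1 stay near their WT levels.

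Stag2, Nipbl, Smc2 and Ncaph2 have 3, 2, 2 and 4 accessions in the tables. Reads that fit several transcripts of a gene can be left uncounted when each transcript is a feature, and the listed values are far below those of the genes with 1 accession. Over the tables, 15.5% of genes with 1 coding accession were at 0 in every library, against 33.6% of genes with several. For Nipbl, the cohesin loader, 1 accession (NM_201232) held 49.7 and 27.3 in WT and 60.6 and 91.6 in H1-TKO, and the other was at 0. For Stag2, the more abundant Stag subunit of most cells, the accession with the most reads (NM_001077712) held 9 and 11 reads in the WT libraries and 22 and 15 reads in those of H1-TKO. Another (NM_021465) held 13 and 4 reads in WT and none in H1-TKO. Smc2, the partner of Smc4, had at most 5.3 normalized counts in any library, and all accessions of Ncaph2 were at 0. These values do not give the genes' levels, and whether the partner arm Smc2 moved with Smc4 was not measured.

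The Smc4 gene also holds the microRNA genes Mir15b and Mir16-2, at mm9 chr3:68813678-68813775 and chr3:68813824-68813918 on the same strand. Both precursors were listed at 0 in all 4 libraries. These were made from poly(A) RNA, so the 0 does not give the level of either microRNA. Their mature 5p forms, from RefSeq, are shown because they share 1 seed, bases 2 to 8 in capitals, with which a microRNA pairs to its targets.
miR-15b-5p: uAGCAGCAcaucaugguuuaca
miR-16-5p: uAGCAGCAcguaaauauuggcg

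The other genes of genome folding were taken as 8 lists with 44 genes in all, of which 34 were measured. Of these, 8 were higher and 4 lower in H1-TKO, and 22 did not pass, where 9.84% of all tested accessions were higher and 10.7% lower. The median of the 34 log2 fold changes was 0.07. The lists were drawn up with earlier results of these data known, so their counts describe them and are no independent test.

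**Figure D4:**
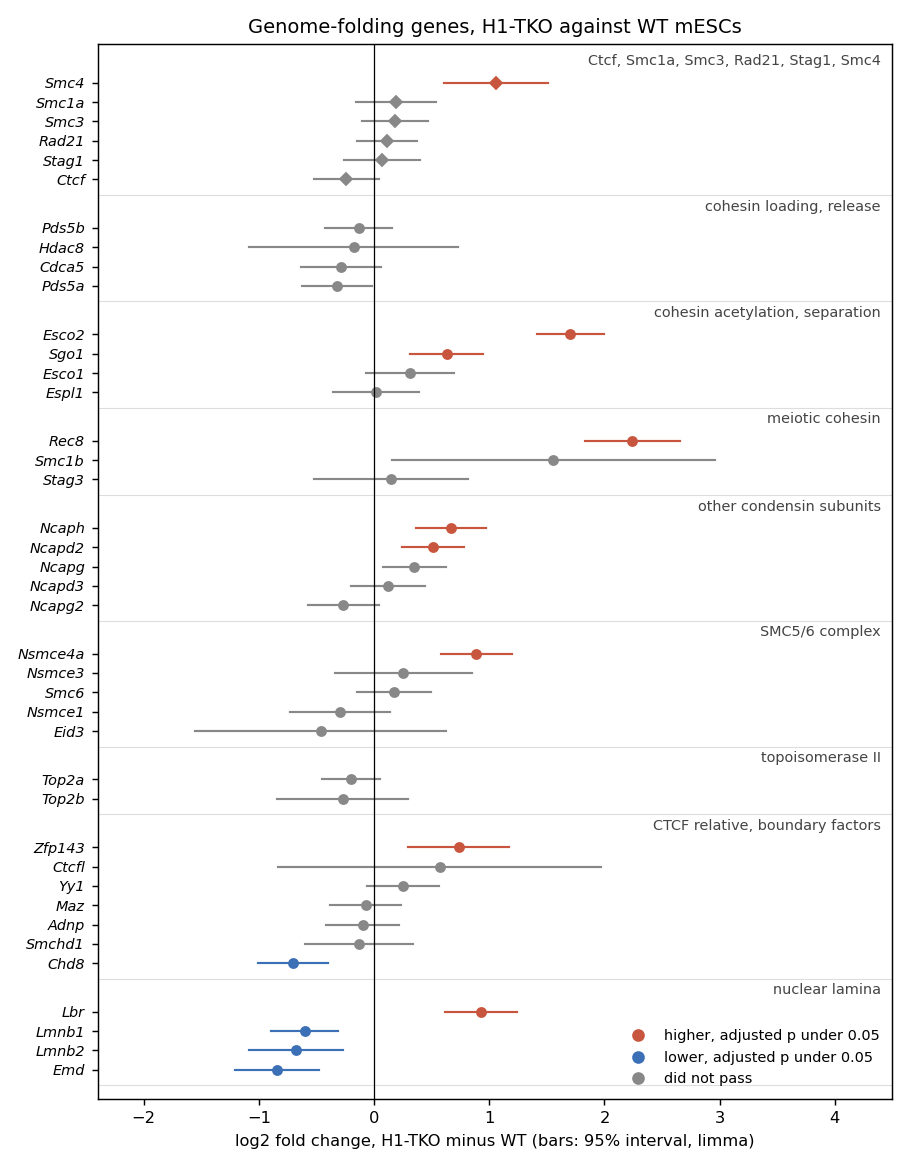
Log2 fold change, H1-TKO minus WT (x axis), with its 95% limma interval (bars) for the 6 measured genes (diamonds) and 34 other folding genes (circles), grouped by role; red marks higher and blue lower at an adjusted p under 0.05, genotypes follow the tables' own headers and the sample labels reverse them. Esco2 at 1.71 and Rec8 at 2.24 lie above Smc4 at 1.06, and 3 of 4 lamina genes lie below 0.

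The remaining condensin subunits were all measured, and 2 of 5 were higher and none lower, in edgeR and DESeq2 as well, beside 9.84% higher and 10.7% lower over all tested accessions. Ncapd2, a HEAT-repeat subunit of condensin I, had 5314.3 and 4764.5 in WT and 7134.1 and 7217.7 in H1-TKO. It rose by a log2 fold change of 0.51 with a standard error of 0.11 (limma adjusted p = 0.0225). Ncaph, the kleisin of condensin I, had 1355.3 and 1209.7 in WT and 2053.7 and 2014.8 in H1-TKO, a log2 fold change of 0.67 (limma adjusted p = 0.0148). Ncapg, the other HEAT subunit of condensin I, had a log2 fold change of 0.35 and missed the threshold (limma adjusted p = 0.0722). It was called higher in 4 of 14 alternatives, with quantile normalization, with scaling to total reads and without either WT library. The condensin II subunits Ncapd3 and Ncapg2 had values of 0.12 and -0.27 and did not pass. Without WT replicate 1 Ncapd3 was called higher, and without either WT library Ncapg2 was called lower. Calls for Ncaph and Ncapd2 were lost without either H1-TKO library, and a difference between condensin I and II subunits was not tested. Relative to Smc4 per kb, Ncaph was at 0.45 and 0.61 in WT and at 0.41 and 0.39 in H1-TKO. Ncapg2 was at 0.16 and 0.24 in WT and at 0.08 and 0.08 in H1-TKO. For each of the 5 subunits both H1-TKO ratios to Smc4 lay below both WT ratios. These ratios were not tested.

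Cohesin's loading and release factors other than Nipbl showed no call with all libraries in the fit. Of 6 genes, Mau2 and Wapl have several accessions, and 4 were measured, none higher or lower in limma, edgeR or DESeq2, beside 9.84% higher and 10.7% lower over all tested accessions. At an unadjusted p under 0.05, 1 was lower in limma and in edgeR. Their log2 fold changes ran from -0.32 for Pds5a to -0.13 for Pds5b, both of which hold or release cohesin on chromatin. Pds5a had 3682.8 and 3139.2 in WT and 2625.6 and 2816.3 in H1-TKO (limma adjusted p = 0.117). It was called lower without WT replicate 1 (-0.21, adjusted p = 0.0204) and without WT replicate 2 (-0.44, adjusted p = 1.57e-07), and Cdca5, sororin, was called lower without WT replicate 1 (-0.39, adjusted p = 0.00167).

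Genes that fix cohesin on sister chromatids or cut it included 2 of 4 measured that were higher and none lower, in edgeR and DESeq2 as well, beside 9.84% higher and 10.7% lower over all tested accessions. Esco2, the acetyltransferase that modifies Smc3 in S phase and so makes cohesin hold sister chromatids, had 1826.3 and 1607.8 in WT and 5459.4 and 5722.1 in H1-TKO. It rose 3.26-fold, a log2 fold change of 1.71 with a standard error of 0.12 (limma adjusted p = 0.0012), and it was called in 14 of 14 alternatives. Sgo1, which shields centromeric cohesin, had a log2 fold change of 0.63 (limma adjusted p = 0.0203). Its call was lost without either H1-TKO library. Esco1, the related acetyltransferase, had 0.31 and passed only without WT replicate 1, and Espl1, separase, had 0.02 (limma adjusted p = 0.954). For Espl1 the sign depended on which WT library was kept, with a call in either fit.

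Meiotic cohesin subunits gave 1 call among 3 measured genes, which was higher, beside 9.84% higher over all tested accessions. Rec8, the meiotic kleisin that takes the place of Rad21, had 197.8 and 241.1 in WT and 1032.4 and 1041.6 in H1-TKO. It rose 4.73-fold, a log2 fold change of 2.24 with a standard error of 0.17 (limma adjusted p = 0.00135), in 14 of 14 alternatives as well. Its ratio to Rad21 per kb went from 0.07 and 0.08 in WT to 0.34 and 0.33 in H1-TKO. Smc1b, the meiotic partner of Smc3, had 86.1 and 393.8 in WT and 528.9 and 560.3 in H1-TKO, so the WT libraries differed most, and it did not pass (log2 fold change 1.56, standard error 0.60, limma adjusted p = 0.104). With WT replicate 1 left out its value was 0.47, with WT replicate 2 left out it was 2.65, and it was called higher in both of those fits and with the replicate block. Stag3 overlapped between genotypes, with a log2 fold change of 0.15 and calls of opposite sign without either WT library, and Rad21l was below the filter.

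In the SMC5/6 complex, which acts in DNA repair, 1 of 5 measured genes was higher and none lower, in edgeR and DESeq2 as well, beside 9.84% higher and 10.7% lower over all tested accessions. Nsmce4a, its kleisin, rose by a log2 fold change of 0.89 (limma adjusted p = 0.00707), a call that was lost without either H1-TKO library. Smc6, an arm of the complex, had 0.17, Eid3 had -0.46 and neither passed, although Smc6 did without WT replicate 1. Nsmce1 had -0.30 and Nsmce3 had 0.25, and neither passed with all libraries. Nsmce1 was called lower without WT replicate 1, and Nsmce3 higher without WT replicate 2. Both topoisomerase II genes, whose enzymes untangle DNA, did not pass, with log2 fold changes of -0.20 for Top2a and -0.27 for Top2b. Centred on its own chromosome, 11, Top2a had 0.25, and Top2b had 0.11 without WT replicate 1. Without WT replicate 2 both were called lower, and without WT replicate 1 Top2a was. With all libraries neither passed at an unadjusted p under 0.05 in limma, edgeR or DESeq2.

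Among the CTCF relative and boundary or loop factors, 1 of 7 measured genes was higher and 1 lower, beside 9.84% and 10.7% of all tested accessions. Zfp143, a zinc-finger protein found at promoters, rose by 0.73 (limma adjusted p = 0.0341). Chd8, a chromatin remodeller that binds CTCF, had 3671.9 and 4279.1 in WT and 2518.7 and 2350.8 in H1-TKO, a log2 fold change of -0.70 (limma adjusted p = 0.0124). Both calls were lost without either H1-TKO library, and that of Zfp143 also with no filter on low values. Ctcfl, the germline relative of CTCF, had low values, with 15.5 and 52.4 in WT and 43.0 and 43.2 in H1-TKO, and passed only without WT replicate 2. Yy1, the factor whose motif stands in the Ctcf, Smc3 and Stag1 windows, had 1221.9 and 1319.8 in WT and 1583.3 and 1436.6 in H1-TKO. Its log2 fold change was 0.25 (limma adjusted p = 0.214), and it too passed only without WT replicate 2. In that fit Smchd1 and Adnp were called lower, at -0.43 and -0.22.

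The nuclear lamina list, proteins that tether chromatin to the nuclear rim, had 4 measured genes, 3 lower and 1 higher, beside 10.7% lower and 9.84% higher over all tested accessions. Lmnb1 and Lmnb2, the B-type lamins, fell by 0.60 and 0.68 on the log2 scale (limma adjusted p = 0.018 and 0.0351). Emd, emerin, had 1221.1 and 1257.7 in WT and 768.0 and 621.4 in H1-TKO, a log2 fold change of -0.84 (limma adjusted p = 0.0132). These 3 calls were lost without either H1-TKO library, those of both lamins also with scaling to total reads, and that of Lmnb2 with no filter on low values. Lbr, the lamin B receptor, rose by 0.93 (limma adjusted p = 0.00644). It lies on chromosome 1, where the median of 617 tested accessions was 0.52 above that of all. Centred on its chromosome it had 0.52 and was still called (adjusted p = 0.0181), and without H1-TKO replicate 2 its call was lost.

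Genes of the cell cycle moved in both directions beside these. Of 12 measured S and M phase genes, 1 was higher and 3 were lower in limma, where 9.84% and 10.7% of all tested accessions were, and the median log2 fold change was 0.29. By edgeR 1 was higher and 1 lower, and by DESeq2 2 were higher and 1 lower. Ccnb1, the mitotic cyclin B1, rose by 0.56 (limma adjusted p = 0.0318), and Pcna, the replication clamp, had 1459.3 and 2197.9 in WT and 783.4 and 795.2 in H1-TKO, a log2 fold change of -1.18 (limma adjusted p = 0.0104). Mcm2 and Mcm7, helicase subunits, were called lower in limma but not in edgeR or DESeq2. Mcm3 and Mcm6, also helicase subunits, had 0.29 and 0.47 and did not pass in limma. At an unadjusted p under 0.05, 6 of the 12 were higher and 3 lower in limma and in edgeR. By DESeq2 3 were higher and 3 lower at that threshold. Mki67, a marker of cycling cells, had -0.04. Whether the phase of the cells has a part in the change of Smc4, Esco2 or Ncaph was not tested.

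The 3 tested accessions nearest to the mean centred profile of the 6 genes over the 4 libraries were those of Fermt2, Rsbn1 and Ttf1, at Euclidean log2 distances of 0.02 to 0.03. Smc3 lay at 0.06, Smc1a at 0.13, Stag1 at 0.21 and Rad21 at 0.23. Ctcf at 0.52 and Smc4 at 0.88 were far from the mean of their own group. At the distance of Smc4, 6526 accessions were at least as near. With 4 libraries a close profile is common, and no shared control is read from it.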

How the data were processed

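For expression, the authors aligned paired-end poly(A) reads to mm9 gene models by Subread and used those that mapped uniquely. featureCounts gave the counts, DESeq2 the size factors, and the deposited signal of a RefSeq accession is its count over the size factor. Every value (100%) was a whole number of reads on this scale, within 0.01 read. The score of a deposited H3K27me3 peak rises with the −log10 of its p-value in MACS, and ChIP labels were used as given. Genotypes of the RNA-seq libraries came from the table headers: in the 1999 rows read of the study's table, each library equalled its own column within a relative tolerance of 0.001.

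Of 34010 accessions, 33650 had a symbol (RefSeq, GRCm38.p6, used for names) and 31290 a place in GENCODE M1 (NCBIM37, the build mm9). Accessions with a mean of at least 10 (11113) were tested with limma 3.58.1 (R 4.3.3, eBayes with a trend, two-sided, Benjamini-Hochberg) on log2(normalized count + 1), H1-TKO minus WT, with no block. A fold change is thus on the log2(value + 1) scale. edgeR 4.0.16 and DESeq2 1.42.0 on the recovered reads, other pseudocounts, filters and scalings, a replicate block and each library left out were alternatives. Scripts were tested on simulated data. Genes with several accessions were given no call. Named were the 10 genes, the called and extreme genes of each list, the nearest profiles and the targeted genes; other values served as checks of the cells. The members and lists were chosen with earlier results of these data known. Counting in sequencing limits the precision to the reads given, and other assays of the series were not analysed here. Python 3.11.15 was used.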

Additional observations from a re-analysis of the deposited data

How the results depend on the processing

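Smc4, Esco2 and Rec8 were called in the same direction in 14 of 14 alternatives. The counts moved most when a library was left out, where the lone library is assumed to vary like the other genotype: over these fits, called accessions ran from 199 to 2682 higher and from 386 to 2786 lower, the 10 genes from 1 to 3 higher and from 0 to 1 lower, and the other folding genes from 2 to 15 higher and from 0 to 11 lower. The added calls among the 10 genes were Ctcf (lower, without either WT library), Smc1a and Smc3 (higher, without WT replicate 1). Without WT replicate 1, Espl1 turned to -0.21 and Stag3 to -0.34, against 0.24 and 0.63 without WT replicate 2. The cause was not tested. Against 1094 accessions higher and 1188 lower as reported, no filter on low values, which tests 20632 accessions, gave 624 and 697. Scaling to total reads gave 1469 and 781, left 2 other folding genes lower and added Ncapg to those higher. It moved the median of all accessions from -0.03 to 0.13 and the share of higher among called accessions from 47.9% to 65.3%, and leaving out an H1-TKO library gave 34.0% and 34.2%. Deviations of libraries with the same replicate number had a correlation of 0.01, and whether they were handled in pairs is not known. With the replicate block 1521 accessions were higher and 1778 lower, and Smc1b was added to the other folding genes, 9 higher and 4 lower. The count of the 10 genes with an H3K27me3 peak was also 0 within 5 kb, and a stricter score could only give 0. With 2 libraries a genotype, and WT libraries that differ, the change of Ctcf was not called with all libraries. How small a change can be called was not estimated.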
